A study of Mus musculus with 8 samples.

Results

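The genes of cholesterol synthesis and handling were compared between adult oligodendrocyte progenitor cells (aOPC) and adult oligodendrocytes (aOL) at the level of RNA and of DNA hydroxymethylation. The set held 30 genes, listed by name for their roles in the sterol pathway, at a time when earlier results of these data were known, and all 30 were among the 11315 genes of the RNA tables. They comprised 8 enzymes from acetyl-CoA to the isoprenoids, 3 enzymes from squalene to lanosterol, 8 enzymes from lanosterol to cholesterol, 5 genes that control the SREBP transcription factors, and 6 genes of sterol transport and storage. In the reduced representation hydroxymethylation profiling (RRHP) tables, 30 of them had at least 1 site in the gene body, 25 had at least 1 site in the promoter, and together they held 1024 of 1497075 sites. Msmo1 appears there under its older symbol Sc4mol.

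Both populations were sorted by fluorescence from the brains of C57BL/6 mice at postnatal day 60. The aOPC came from Pdgfra-H2BEGFP mice, in which the Pdgfra locus drives a nuclear green fluorescent protein, and the aOL from Plp-EGFP mice, in which a promoter active in the oligodendrocyte lineage drives it. The labels name no other allele and no treatment, and the reporter line and the population cannot be told apart. Each population had 2 RNA-sequencing libraries and 2 RRHP libraries (replicates 2 and 3). By the protocol, DNA and RNA were taken from the same cell pellets, and the labels do not say how many animals entered a pellet. The labels of the aOL RRHP libraries name the Pdgfra reporter as their tissue, so these libraries were grouped by their titles, and the titles of the aOL RNA libraries call the cells pre-myelinating where the protocol calls them myelinating.

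Cholesterol is a main lipid of myelin, and because plasma lipoproteins do not cross into the brain, the cells that make myelin synthesize most of what they use. Synthesis runs from acetyl-CoA through mevalonate to farnesyl pyrophosphate, then through squalene to lanosterol, and from lanosterol through a series of sterols to cholesterol. The pathway is controlled by SREBP transcription factors, which the escort protein SCAP carries from the endoplasmic reticulum when sterols are low and which INSIG proteins hold back when sterols are high. RRHP reads 5-hydroxymethylcytosine (5hmC), the oxidized form of methylated cytosine, where a glucose added to it keeps MspI from cutting the CCGG around it.

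Some library facts bear on every value below. The oligodendrocyte markers were as high in the libraries labelled aOPC as in those labelled aOL: the median log2 value of the 12 listed markers was 18.1 and 17.7 in aOPC and 17.9 in both aOL libraries. Pdgfra, the defining progenitor gene, had log2 values of 7.54 and 5.47 in aOPC, against 4.98 and 1.63 in aOL. Over the 10 listed progenitor markers the aOPC medians were 8.75 and 6.61 and the aOL medians 6.80 and 6.87, and their summed level, most of it Olig1, which oligodendrocytes also express, ran from 16.41 to 16.98 over the 4 libraries on the log2 scale. The male gene Ddx3y had a log2 value of 12.4 in aOPC replicate 2 and 0.318 to 1.63 in the other libraries, whereas RRHP counts on the Y chromosome were 0.398% to 0.555% of the total in all 4 RRHP libraries. Whether RNA and RRHP libraries of the same number share a pellet was not tested. In RRHP, aOPC replicate 2 had the fewest counts, 7113237 of a range that reached 27057859, and the largest share of counts in CpG islands, 5.74% against 2.38% to 3.32%. The part of these facts in the results was not tested. In sorted bulk samples, fewer cells of a type and less RNA per cell cannot be told apart.

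No cholesterol gene passed the RNA threshold (limma p under 0.01 and adjusted p under 0.05) in either direction, against a background of 0.00898% of the 11133 genes tested called higher and 0.0719% called lower in aOL. The members were abundant in both populations. On the scale of log2 level per kb of exon, which allows genes to be compared, 27 of 30 lay above the median of all genes with an exon length and 12 lay above the 90th percentile, with a median of 10.95 against 8.27 for all genes. Hmgcs1 had the highest level per kb (13.2), followed by Msmo1 (12.1), Insig1 (11.9) and Cyp51 (11.8), and Soat1 (6.18), Stard4 (7.14) and Tm7sf2 (7.21) had the lowest.

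**Figure D1:**
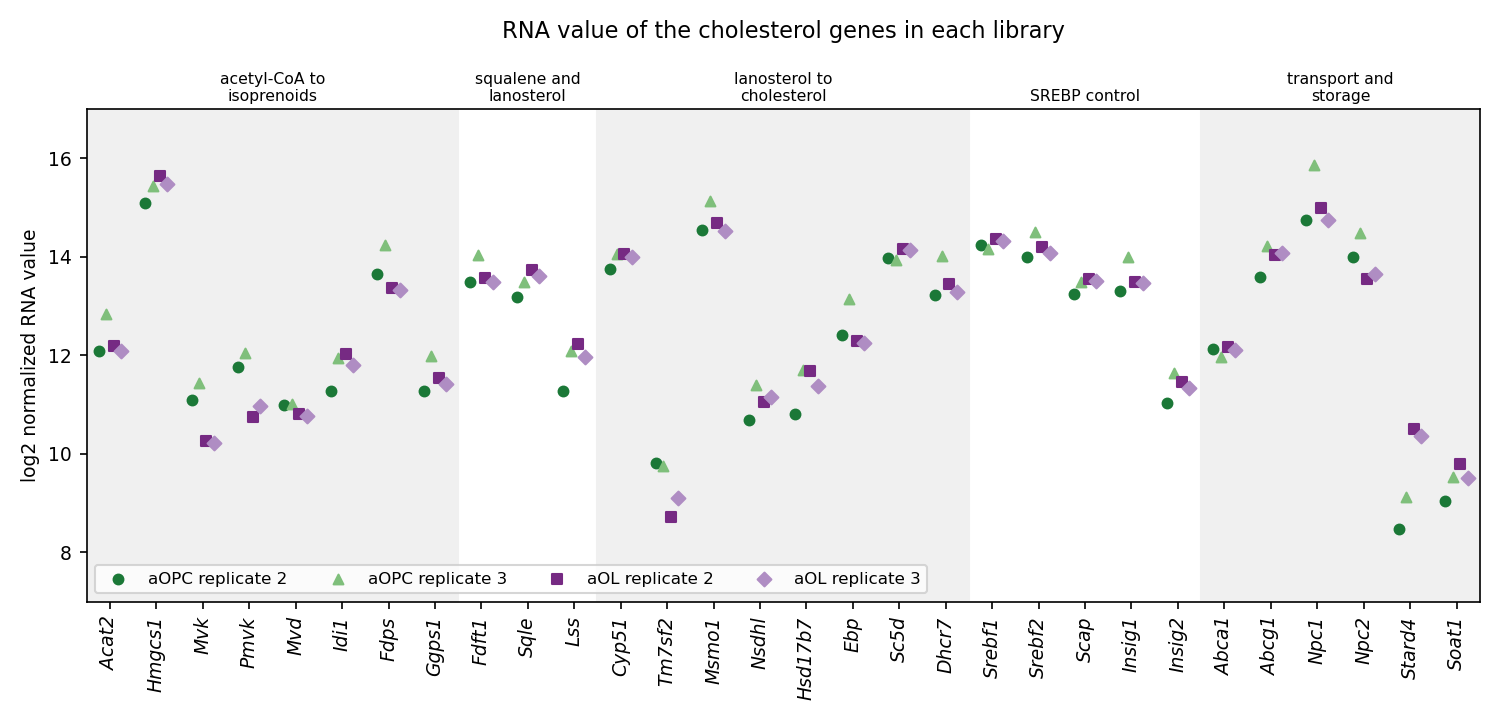
Log2 normalized RNA value (vertical axis) of each of the 30 cholesterol genes in the 2 aOPC libraries (green) and the 2 aOL libraries (purple), grouped by role. Mvk, Pmvk and Tm7sf2 lie lower in both aOL libraries than in both aOPC libraries, and Stard4 lies higher. The highest library is aOPC replicate 3 (light green triangles) for 18 genes (60%), beside 38.0% of all genes.

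At an unadjusted limma p under 0.05, 1 member was higher in aOL and 3 were lower, where 12.1% and 12% of all genes tested did so. The populations did not overlap for 6 members with higher and 7 with lower values in aOL, which is 20% and 23.3% of the members where 31.9% and 29.9% of all genes did not overlap. The median difference (aOL minus aOPC, log2) over the 30 members was -0.03, beside 0.02 over all genes tested, and 15 members were higher and 15 lower.

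Of the enzymes that build the isoprenoids, Mvk and Pmvk, which add the first and the second phosphate to mevalonate, had the lowest values in aOL relative to aOPC. The log2 RNA value of Mvk (chr5:114444264-114460591, GRCm38) was 11.10 and 11.44 in aOPC, against 10.26 and 10.21 in aOL, and the populations did not overlap. The difference was -1.03 (SE 0.218), a level 2.05 times as high in aOPC, with a limma p of 0.00822 and an adjusted p of 0.134. Pmvk (chr3:89454541-89469014), the next enzyme in line, showed 11.76 and 12.05 in aOPC, against 10.76 and 10.98 in aOL, a difference of -1.04 (SE 0.223, adjusted p = 0.137 in limma). Hmgcs1 (chr13:119690351-119708260), the synthase that makes HMG-CoA ahead of the rate-limiting reductase, was the most abundant of the group and stayed close to level, with 15.10 and 15.45 in aOPC, against 15.63 and 15.47 in aOL (difference 0.28, SE 0.226, adjusted p = 0.482 in limma). Idi1, the isomerase that makes the reactive isoprene unit, had 11.27 and 11.94 in aOPC, against 12.02 and 11.80 in aOL, so its populations overlapped (difference 0.30, SE 0.306, adjusted p = 0.568 in limma). Over the 8 genes of this arm, 6 were lower in aOL, 4 of them without overlap (50% of 8, beside the 29.9% of all genes), and the median difference was -0.27.

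The enzymes from squalene to lanosterol had small differences. Fdft1, squalene synthase, which commits farnesyl pyrophosphate to sterols, had log2 values of 13.49 and 14.04 in aOPC, against 13.57 and 13.49 in aOL, with a difference of -0.24 (SE 0.266, adjusted p = 0.605 in limma). Lss, lanosterol synthase, had 11.27 and 12.08 in aOPC, against 12.24 and 11.98 in aOL, a difference of 0.43 (SE 0.350, adjusted p = 0.481 in limma) that was 0.025 without aOPC replicate 2 and 0.84 without aOPC replicate 3. Both genes overlapped between the populations. Sqle, squalene epoxidase, did not, with 13.18 and 13.49 in aOPC, against 13.73 and 13.60 in aOL (difference 0.33, SE 0.218). The adjusted p over the 3 genes of this step ranged from 0.397 to 0.605.

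Among the enzymes from lanosterol to cholesterol, Tm7sf2, a sterol C14 reductase, was lower in both aOL libraries. Its log2 values were 9.82 and 9.76 in aOPC, against 8.72 and 9.10 in aOL (chr19:6062821-6067850), a difference of -0.88 (SE 0.226, adjusted p = 0.155 in limma). Msmo1, the C4 methyl oxidase and the most abundant enzyme of these steps, had 14.55 and 15.12 in aOPC, against 14.69 and 14.53 in aOL, which overlapped (difference -0.23, SE 0.278). Hsd17b7, the 3-keto reductase of the same demethylation, had 10.80 and 11.70 in aOPC, against 11.67 and 11.38 in aOL (difference 0.28, SE 0.376). Its aOPC libraries lay 0.90 log2 units apart, more than the population means. Of the 8 genes, 4 were higher and 4 lower in aOL, with a median difference of -0.09.

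The regulators differed least. Srebf1, which encodes the SREBP that favours fatty acid genes, had log2 values of 14.23 and 14.16 in aOPC, against 14.37 and 14.33 in aOL (difference 0.15, SE 0.186). Scap had 13.25 and 13.49 in aOPC, against 13.55 and 13.52 in aOL, and Insig1, itself a classical SREBP target, had 13.31 and 14.002 in aOPC, against 13.49 and 13.47 in aOL. All 5 differences of this group lay between -0.18 and 0.17, with adjusted limma p-values from 0.633 to 0.908.

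The largest difference among the members was that of Stard4, a cytosolic carrier that moves cholesterol between membranes. Its log2 RNA value was 8.48 and 9.12 in aOPC, against 10.51 and 10.37 in aOL (chr18:33199138-33213862), so both aOL libraries lay above both aOPC libraries. The difference was 1.64 (SE 0.292), a level 3.12 times as high in aOL, with a limma p of 0.00441 and an adjusted p of 0.130. Npc2, the soluble lysosomal protein that hands cholesterol to NPC1, was lower in both aOL libraries, with 13.998 and 14.49 in aOPC, against 13.54 and 13.65 in aOL (difference -0.65, SE 0.253, adjusted p = 0.224 in limma). Npc1, the membrane partner in lysosomal export and the most abundant gene of the group, had 14.76 and 15.87 in aOPC, against 14.98 and 14.75 in aOL (difference -0.45, SE 0.434). Its 2 aOPC libraries differed by 1.11 log2 units, the widest gap between replicates among the members.

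That gap between the aOPC libraries ran through the set. In aOPC replicate 3 the value exceeded that of aOPC replicate 2 for 26 of the 30 members, against 55.4% of all genes, and the median difference was 0.56 log2 units, beside 0.10 over all genes. The isoprenoid arm (8 of 8 higher, median 0.46), the steps to lanosterol (3 of 3, median 0.55) and the later steps (6 of 8, median 0.64) had it alike, as did the regulators (4 of 5, median 0.51) and the genes of transport (5 of 6, median 0.56). The 44 other pathway genes described below did not share it (21 of 44, median -0.03). In aOL, replicate 3 was higher for 5 of 30 members with a median difference of -0.08, and no member lay more than 0.375 log2 units apart. Whether sex, the share of other cells or handling had a part in the gap was not tested. aOPC replicate 2 was the lowest of the 4 libraries for 16 members (53.3%), beside 29.3% of all genes.

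**Figure D2:**
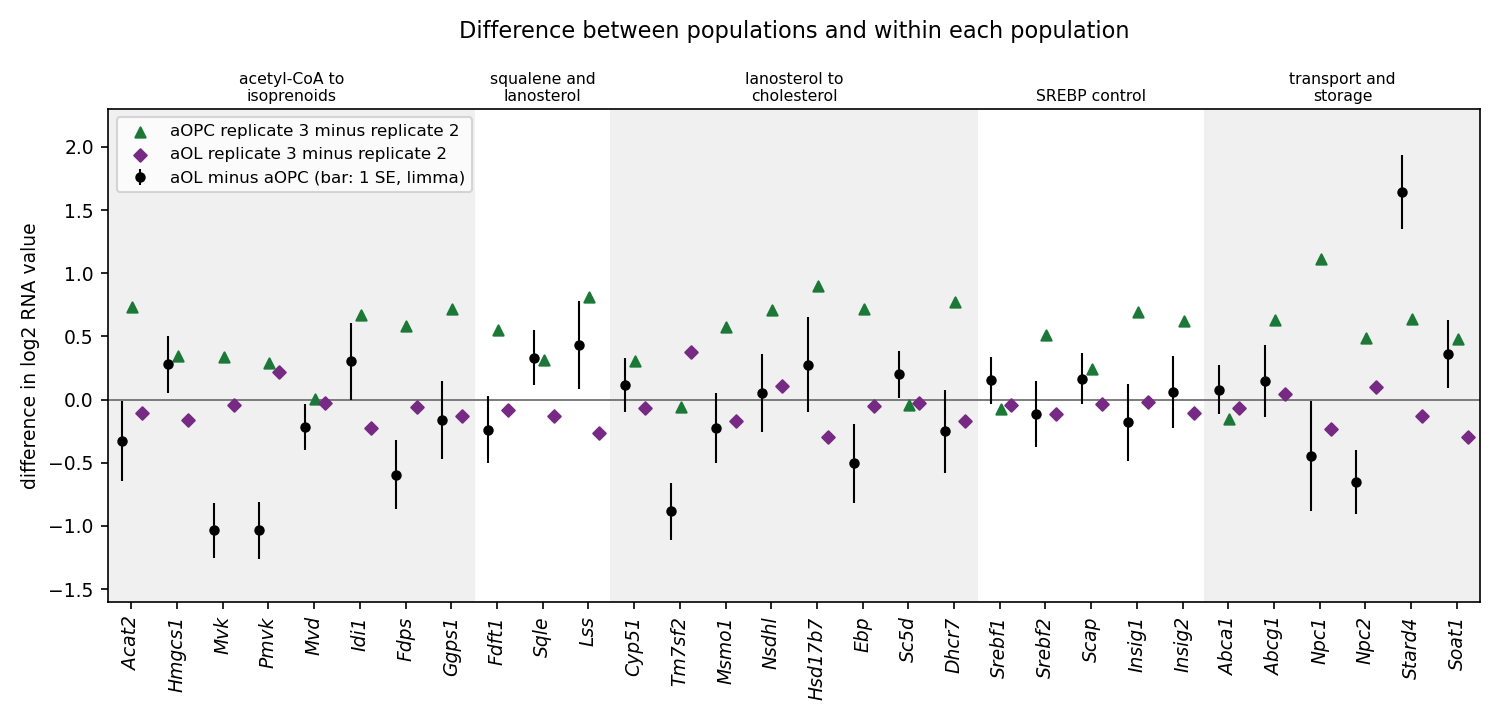
Difference in log2 RNA value for each cholesterol gene: aOL minus aOPC with 1 SE of the limma fit (black), aOPC replicate 3 minus replicate 2 (green triangles) and aOL replicate 3 minus replicate 2 (purple diamonds). The green triangles lie above 0 for 26 of 30 genes and often exceed the black points, while the purple diamonds stay near 0.

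Calls turned on which aOPC library was used. Without aOPC replicate 2, 1 member (Stard4) was called higher in aOL and 7 were called lower (Mvk, Pmvk, Fdps, Acat2, Ebp, Npc1 and Npc2), where 18.4% and 17.9% of all genes were called. Without aOPC replicate 3, Stard4 was called higher and Mvk and Pmvk were called lower, against 12% and 9.28% of all genes. In such fits the single aOPC library is assumed to vary like the aOL pair. Stard4 kept its direction in both, with differences of 1.32 and 1.96, as did Mvk (-1.20 and -0.87) and Pmvk (-1.18 and -0.89).

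For 5 members, exons overlap those of another gene in the RNA tables (Ggps1, Fdft1, Cyp51, Tm7sf2 and Srebf1). Whether the counting used strand is not stated, so reads could be shared there. The gene that overlaps Tm7sf2 (Vps51) lies on the same strand, so counting by strand would not separate them. Of 46 other genes of the pathway (further enzymes, uptake genes, oxysterol-binding proteins and carriers), 44 were in the RNA tables and 43 were tested. None was called, and at an unadjusted limma p under 0.05, 3 were higher and 5 lower (6.98% and 11.6%), where 12.1% and 12% of all genes were. The median difference was -0.02. Of those lower in aOL, Cyp46a1, the hydroxylase through which neurons discharge cholesterol, had log2 values of 9.28 and 9.22 in aOPC, against 8.08 and 7.88 in aOL (adjusted p = 0.122 in limma). Its direction held when either aOPC library was left out, and so did those of Apoe, Coq2, Osbpl8 and Abca2 below. Apoe, the main lipid carrier made by glia, had 15.91 and 16.13 against 15.13 and 15.37 (adjusted p = 0.167 in limma), and Coq2, of ubiquinone synthesis, 12.18 and 12.31 against 11.57 and 11.69 (adjusted p = 0.183 in limma). Of those higher in aOL, Osbpl8, a lipid transfer protein of membrane contacts, had 10.24 and 10.28 in aOPC, against 11.23 and 11.10 in aOL (adjusted p = 0.134 in limma), and Abca2, a transporter enriched in oligodendrocytes, 16.94 and 16.32 against 17.76 and 17.66 (adjusted p = 0.159 in limma). These 5 genes had populations that did not overlap. Markers of other cells were read in every library. Of 5 listed neuron markers all had lower means in aOL, and their summed log2 level was 12.11 and 12.45 in aOPC, against 11.66 and 11.82 in aOL. Of 8 astrocyte markers 6 had lower means in aOL (summed level 13.82 and 13.49 against 13.43 and 13.63), and of 10 microglia markers 7 did (12.62 and 11.94 against 12.20 and 11.77). Their part in the values of Cyp46a1, Apoe and the members was not tested.

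Promoters are shown for 3 enzymes, because RRHP reads only CCGG sites and these sequences show how many each window offers. Hmgcs1 is the most abundant member per kb, and Mvk and Tm7sf2 had lower RNA values in aOL. The sequences run from 250 bases before to 50 bases after the annotated start (RefSeq, GRCm38.p6) and are written 5′ to 3′ on the gene's strand, with CCGG in capitals and, in Hmgcs1, also the 9 letters of the sterol regulatory element.
Hmgcs1 (chr13:119690101-119690400, + strand): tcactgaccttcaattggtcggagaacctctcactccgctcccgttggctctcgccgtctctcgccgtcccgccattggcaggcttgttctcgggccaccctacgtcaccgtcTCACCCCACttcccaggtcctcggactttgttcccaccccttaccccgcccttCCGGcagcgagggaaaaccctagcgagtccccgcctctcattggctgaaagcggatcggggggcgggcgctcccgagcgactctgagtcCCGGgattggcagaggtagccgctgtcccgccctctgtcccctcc
Mvk (chr5:114444019-114444318, + strand): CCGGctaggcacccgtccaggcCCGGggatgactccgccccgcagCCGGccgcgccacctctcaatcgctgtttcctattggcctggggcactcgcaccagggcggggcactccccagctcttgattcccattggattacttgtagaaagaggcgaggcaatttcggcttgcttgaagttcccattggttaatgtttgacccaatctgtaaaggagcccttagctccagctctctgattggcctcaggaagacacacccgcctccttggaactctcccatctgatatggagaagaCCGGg
Tm7sf2 (chr19:6067801-6068100, - strand): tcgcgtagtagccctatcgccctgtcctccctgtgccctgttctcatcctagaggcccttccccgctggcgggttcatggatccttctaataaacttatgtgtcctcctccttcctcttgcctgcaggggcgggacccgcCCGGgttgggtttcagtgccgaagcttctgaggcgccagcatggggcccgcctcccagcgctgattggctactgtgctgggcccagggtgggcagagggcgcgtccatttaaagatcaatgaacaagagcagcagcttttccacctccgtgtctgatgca
The CCGG sites in these windows held few RRHP reads: in aOPC replicates 2 and 3 and aOL replicates 2 and 3, in that order, 5, 6, 3 and 7 reads at the 2 sites of Hmgcs1, 4, 8, 5 and 8 at the 4 sites of Mvk, and 2, 1, 4 and 6 at the single site of Tm7sf2.

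Of the 30 members, 24 had a promoter sequence, 32 sequences in all. The core of the sterol regulatory element, searched as TCACNCCAC on both strands, occurred in 1 member promoter, that of Hmgcs1, at position -137 counted from the first transcribed base as 0, and in 1.24% of the 32851 promoters of the reference. The CCAAT box, searched as CCAAT on both strands, occurred in 22 of the 32 member promoters (68.8%) and in 37.4% of all promoters. The GC box, searched as GGGCGG on both strands, occurred in 26 member promoters (81.3%) and in 35.7% of all, and the E-box, searched as CACGTG, in 7 (21.9%) and in 7.15% of all. The site CCGG itself, which the GC box does not contain, occurred in 27 member promoters (84.4%) and in 52.8% of all. A match is a run of letters and not a bound site.

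RRHP can read a gene only where it holds CCGG. The 30 loci held 936 CCGG in the reference, of which 74.4% had at least 1 read, beside 69.6% over all protein-coding genes. Idi1 held 2 CCGG, Stard4 4 and Acat2 7, against 133 in Abca1. Per CCGG, Fdps (1.71 CPM, the count scaled to equal library totals), Npc2 (1.68 CPM) and Hmgcs1 (1.32 CPM) had the most signal, at percentiles of 97.2, 97.1 and 93.1 among protein-coding genes, and Stard4, Acat2 and Idi1 the least, with 0.00392 to 0.0125 CPM. The median over the members was 0.676 CPM per CCGG, beside 0.491 over protein-coding genes, and 19 of 30 members lay above the latter. Among the member sites, exon sites averaged 1.27 CPM, intron sites 0.963 CPM and promoter sites 0.183 CPM, and the same order held over all sites (0.983, 0.863 and 0.287 CPM). In promoters within CpG islands the member sites averaged 0.136 CPM.

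**Figure D3:**
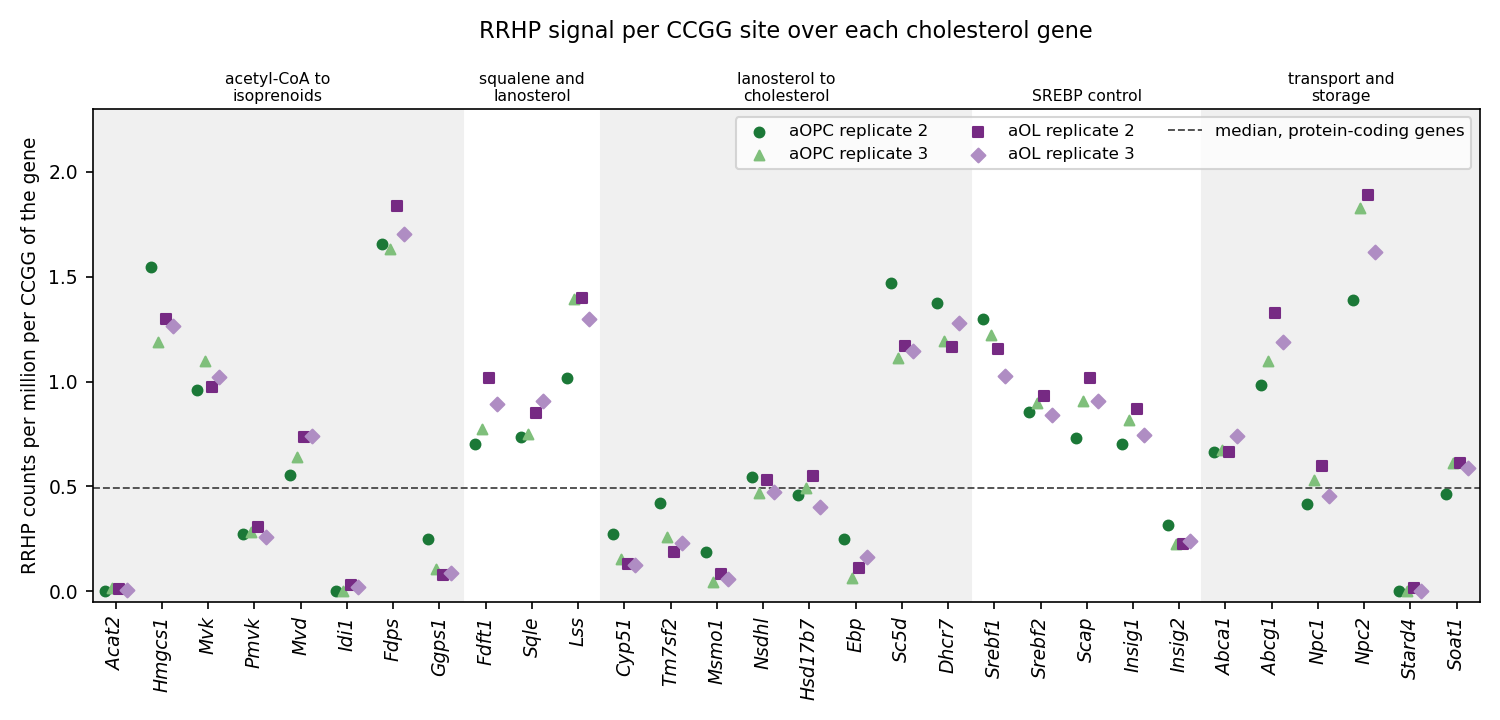
RRHP CPM per CCGG of the reference (vertical axis) over the locus of each cholesterol gene in each of the 4 RRHP libraries, with the median over protein-coding genes as a dashed line. Fdps and Npc2 have the highest means, 1.71 and 1.68, and Acat2, Idi1 and Stard4 lie near 0 in every library.

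The genes differed in how few sites their reads came from. The best-read 3 sites held 77.4% of the gene body reads of Hmgcs1 and 69.6% of those of Fdps, but 18.7% of those of Abca1. The best-read sites of the set are shown with 12 bases on either side (GRCm38.p6, + strand, CCGG in capitals). For Hmgcs1 and Fdps they hold much of the body signal, whereas the site shown holds 17.6% of the body reads of Srebf1 and 12.5% of those of Srebf2.
Hmgcs1, chr13:119694992-119695019: ctgaaggaggaaCCGGtgaccgacctgg
Hmgcs1, chr13:119705119-119705146: acttgtgtggcaCCGGatgtctttgctg
Fdps, chr3:89095611-89095638: gcagatctgtccCCGGcgagtgagggaa
Srebf1, chr11:60212176-60212203: atgcatcgggagCCGGatgcctctaaga
Srebf2, chr15:82170632-82170659: caatggggagccCCGGgtaggctcggta
The first Hmgcs1 site, at cytosine 119695006 on the - strand, is exonic in the files' annotation and lies in intron 1 of a RefSeq transcript. It had 82 and 203 reads in aOPC, against 246 and 346 in aOL, which is 11.5 and 11.9 CPM against 15.4 and 12.8 CPM. The second lies in coding exon 8 of Hmgcs1 (cytosine 119705132, + strand), with 80 and 162 reads in aOPC, against 145 and 251 in aOL, or 11.2 and 9.46 CPM against 9.11 and 9.28 CPM. The Fdps site lies in coding exon 5 (cytosine 89095624, + strand) and had 96 and 194 reads in aOPC, against 184 and 302 in aOL, which is 13.5 and 11.3 CPM against 11.6 and 11.2 CPM. The Srebf1 site lies in intron 1 (cytosine 60212190, - strand), with 133 and 220 reads in aOPC, against 152 and 221 in aOL. In CPM it had 18.7 and 12.8 in aOPC, against 9.55 and 8.17 in aOL, without overlap, and the log2 difference was -0.95 (SE 0.289), with an adjusted p of 0.149 in edgeR. Without aOPC replicate 3 this site was called, in a fit that also called a larger share of all sites than the fit to all libraries. No other alternative called it. The Srebf2 site lies in intron 2, with 79 and 167 reads in aOPC, against 130 and 216 in aOL. Its CPM was lower in aOL without overlap, 11.1 and 9.75 against 8.16 and 7.98 (adjusted p = 0.634 in edgeR).

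In gene bodies, 27 members passed the filter on low counts and none was called by edgeR at an adjusted p under 0.05, against a background of 0.14% of 18509 gene bodies called higher and 0.654% called lower in aOL. Acat2, Idi1 and Stard4 had 1 to 4 reads over all libraries and were not tested, so a difference in them was not detectable at this depth. The median log2 ratio over the 27 was -0.00, beside -0.01 over all gene bodies. At an unadjusted edgeR p under 0.05, 1 member was higher, where 2.69% of all gene bodies were, and none was lower, where 4.5% were.

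That member was Fdft1 (chr14:63145150-63181687). Its body had 159 and 460 reads in aOPC, against 577 and 849 in aOL, or 22.4 and 26.9 CPM against 36.2 and 31.4 CPM. The populations did not overlap, and the log2 ratio was 0.42 (SE 0.150, adjusted p = 0.508 in edgeR). The other enzymes of that step, Sqle and Lss, also had higher CPM in both aOL libraries, with log2 ratios of 0.23 and 0.41 (adjusted p = 0.766 and 0.751 in edgeR, both chosen after their values were seen). Without aOPC replicate 3 the ratio of Lss was 0.98. Over the 27 tested members, 6 bodies were higher and 4 lower in aOL without overlap (22.2% and 14.8%), where 21% and 17.9% of all gene bodies were. All 8 enzymes from lanosterol to cholesterol had log2 ratios below 0, from -0.71 to -0.01, and all 5 tested genes of transport and storage had ratios above 0, from 0.06 to 0.26, while 50.9% of all gene bodies tested had ratios below 0. Both runs of sign were named after their values were seen. Of these genes 2 of the 8 and 1 of the 5 had no overlap between populations and none had an unadjusted edgeR p under 0.05. The ratios of Nsdhl and Hsd17b7 were -0.0096 and -0.0135, beside a median of -0.0053 over all bodies, and the mean CPM of Hsd17b7 was 11.7 in aOPC and 11.8 in aOL. Cyp51, Tm7sf2 and Msmo1, with the lowest ratios of the 8, had 160, 83 and 45 body reads over all libraries. In each of them aOPC replicate 2 had the highest CPM.

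The 3 members with most reads in the body were Abcg1, Abca1 and Srebf2. Abca1 (chr4:53030789-53159988), the transporter that loads cholesterol onto apolipoproteins, had 88.3 and 89.5 CPM in aOPC, against 88.0 and 98.8 CPM in aOL (log2 ratio 0.06, SE 0.127). Srebf2, which encodes the SREBP that drives sterol synthesis, had 68.5 and 71.9 CPM in aOPC, against 74.5 and 67.2 CPM in aOL (log2 ratio -0.00, SE 0.124). Abcg1 (chr17:31057694-31117984), the partner transporter in sterol efflux, had 77.6 and 86.7 CPM in aOPC, against 105 and 94.1 CPM in aOL (log2 ratio 0.26, SE 0.130, adjusted p = 0.733 in edgeR). Without aOPC replicate 3, 5 members were called higher (Abcg1, Fdft1, Lss, Npc2 and Scap) and 1 lower (Ggps1), where 10.2% and 12.3% of all gene bodies were called.

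In promoters, 20 members were tested by edgeR and none was called, against 0.418% of 14595 promoters called higher and 0.349% called lower. None had an unadjusted p under 0.05, where 4.18% of promoters were higher and 1.78% lower at that threshold. The smallest p was that of Fdps (named after its values were seen), with 18 and 22 reads in aOPC, against 42 and 54 in aOL (log2 ratio 0.85, SE 0.425, adjusted p = 0.881). Summed over the members, promoter sites held 85.5 CPM in aOPC replicate 2, against 35.5 in aOPC replicate 3 and 32.5 and 41.9 in aOL. This followed the library with more CpG island counts: over all promoters the sums were 85421 CPM in aOPC replicate 2 and 48636 to 55119 CPM in the others. Scaling by library totals alone moved the median log2 ratio of all promoters from -0.01 to -0.60, so promoter directions depend on the scaling.

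At single sites, 321 of the 1024 member sites had enough reads for the test, and 8 were called by edgeR. Of these 7 were higher and 1 lower in aOL, or 2.49% of the sites tested, where 1.21% and 1.08% of all 443062 sites were called in these directions. Of the 8 sites, 6 lay in Abcg1, which had 34 of the 321 tested sites. All 7 sites called higher had at most 1 read in each aOPC library and met the read minimum only through the aOL libraries in which they are high, so their p-values give no support of their own and are not printed. The 6 Abcg1 sites are shown with 12 bases on either side (GRCm38.p6, + strand, CCGG in capitals).
Abcg1 intron 2, chr17:31067889-31067916: cttgcctctgccCCGGaagtgctgggat
Abcg1 intron 4, chr17:31095602-31095629: tcacaagaagacCCGGagaaagacctgg
Abcg1 intron 4, chr17:31095749-31095776: ataccttccctgCCGGggccatgcaagt
Abcg1 intron 5, chr17:31099754-31099781: tctgctgagggcCCGGggagaagacact
Abcg1 intron 6, chr17:31104717-31104744: gtctctttcctaCCGGgtgcttgtctcg
Abcg1 coding exon 12, chr17:31110970-31110997: gagtgttttcctCCGGgagcacctgaac
The site in intron 6 of Abcg1 (cytosine 31104731, - strand) had 0 reads in both aOPC libraries and 133 and 253 reads in aOL. Measured against a floor of 3 counts in each aOPC library, it was at least 29.7-fold higher in aOL. The first site in intron 4 (cytosine 31095616, - strand) had 69 and 88 reads in aOL and none in aOPC, at least 12.7-fold higher, and the site in intron 2 (cytosine 31067903, - strand) 42 and 68 reads in aOL and none in aOPC, at least 8.63-fold higher. The site in coding exon 12 (cytosine 31110983, + strand) had 21 and 49 reads in aOL and none in aOPC, at least 5.24-fold higher. The site in intron 5 (cytosine 31099767, + strand) had 0 and 1 reads in aOPC, against 37 and 77 in aOL, a pooled ratio of 64.3. That ratio uses the single aOPC read and no floor, so it is not on the scale of the lower bounds given for the other sites. Like the p-values, an interval for it gives no support of its own and is not printed. Only the second site in intron 4 (cytosine 31095763, - strand), 147 bases from the first, went the other way among the called Abcg1 sites, with 15 and 64 reads in aOPC, against 7 and 0 in aOL. It met the read minimum only through the aOPC libraries in which it is high, so its call gives no support of its own either. Of the 8 called member sites, 1 still met the read minimum without aOL replicate 2 and 1 without aOL replicate 3, so the other calls rest on both aOL libraries. With 10 reads required in every library none of the 8 could be tested.

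The other strand of the same CCGG did not always share the pattern. In intron 2 of Abcg1 it had 1 and 3 reads in aOPC, against 25 and 22 in aOL, whereas at the first site in intron 4 it was read in every library, with 12 and 35 reads in aOPC, against 27 and 29 in aOL. In intron 6 the other strand had 0 to 3 reads in each library. Of the 34 tested Abcg1 sites in the plot along the gene, 28 were not called. The share of all tested sites with an unadjusted edgeR p under 0.05 was 9.75%, but it includes called sites and so has another basis. Among the 28 Abcg1 sites not called, 3 (10.7%) had such a p. They were the other strand in intron 2 given above, cytosine 31114604 (- strand), with 1 and 13 reads in aOPC, against 36 and 64 in aOL, and cytosine 31074112 (+ strand), which was lower in aOL, with 2.67 and 1.99 CPM against 1.07 and 0.739 CPM (all named after their values were seen). As a description, since the sites were picked by these values, the body of Abcg1 without the 6 called sites had 75.5 and 82.9 CPM in aOPC, against 85.5 and 74.3 CPM in aOL. The 5 Mb window that holds Abcg1 had rank 51 of 532 by its share of such one-population sites (called, with at most 3 reads in each library of one population), 4.75% against 1.75% of all tested sites. Whether the 2 reporter lines differ in sequence at these CCGG was not tested.

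**Figure D4:**
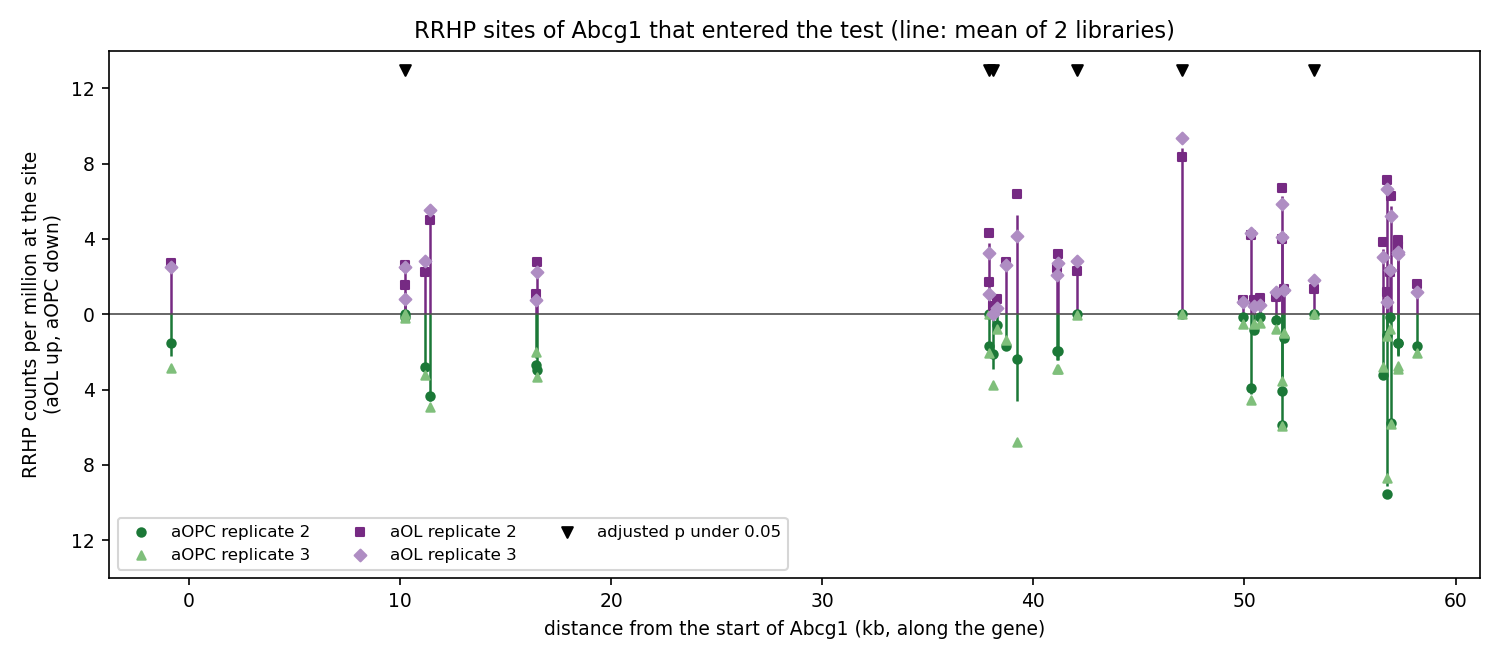
RRHP CPM at each tested site of Abcg1 against the distance from the gene's start in kb, with aOL drawn upwards (purple) and aOPC downwards (green), points for single libraries and lines for the mean of 2 libraries. Black triangles mark the 6 called sites, 5 of which have bars upwards and at most 1 read downwards.

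The other 2 called sites lay in introns of Nsdhl and Srebf2, and 2 further sites met the rule of an unadjusted p under 0.01 and 50 or more reads in each library of a population, those of Fdft1 and Srebf1 (the latter shown above). The 3 not yet shown follow in the same layout.
Nsdhl intron 2, chrX:72926890-72926917: ttcttcagagagCCGGtgtgtagtcccc
Srebf2 intron 1, chr15:82168295-82168322: aatggatctaaaCCGGgctatgtgctgg
Fdft1 intron 1, chr14:63171104-63171131: gtccagactagcCCGGcgcctccctatc
The site of Nsdhl (cytosine 72926903, + strand), which encodes a sterol dehydrogenase of the C4 demethylation, had 0 reads in both aOPC libraries and 31 and 27 in aOL, at least 4.93-fold higher. The Srebf2 site (cytosine 82168308, + strand) had none in aOPC but 18 and 25 reads in aOL, at least 3.44-fold higher. The Fdft1 site (cytosine 63171117, + strand) had 11 and 24 reads in aOPC, against 58 and 122 in aOL, with 1.55 and 1.40 CPM against 3.64 and 4.51 CPM (log2 ratio 1.41, SE 0.359, adjusted p = 0.0577 in edgeR). Close to the threshold, it was called with library totals (adjusted p = 0.0442 in edgeR), with 10 reads in every library (0.0422) and without aOPC replicate 2 (0.0173), and over all alternatives its adjusted p ranged from 0.0173 to 0.99993. Without it, the body of Fdft1 had 20.8 and 25.5 CPM in aOPC, against 32.6 and 26.9 CPM in aOL, still without overlap.

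RNA and hydroxymethylation differences were set side by side. Over the 27 members with both values, the rank correlation between the RNA difference and the gene body log2 ratio was 0.07, beside 0.14 over 10536 genes, and 13 of 27 (48.1%) had the same sign, beside 55.1% of those genes. For the 20 members with a tested promoter, the rank correlation was -0.10. These are descriptions over genes that share the same libraries. Stard4, with the largest RNA difference, had 4 CCGG in its locus and 1 read over all libraries in its body. Mvk and Pmvk had lower RNA values in aOL and gene body log2 ratios of -0.06 (SE 0.133) and 0.35 (SE 0.525). For Abcg1, with 6 called sites, the RNA values were 13.59 and 14.22 in aOPC, against 14.03 and 14.08 in aOL (difference 0.15, SE 0.285), which overlapped.

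**Figure D5:**
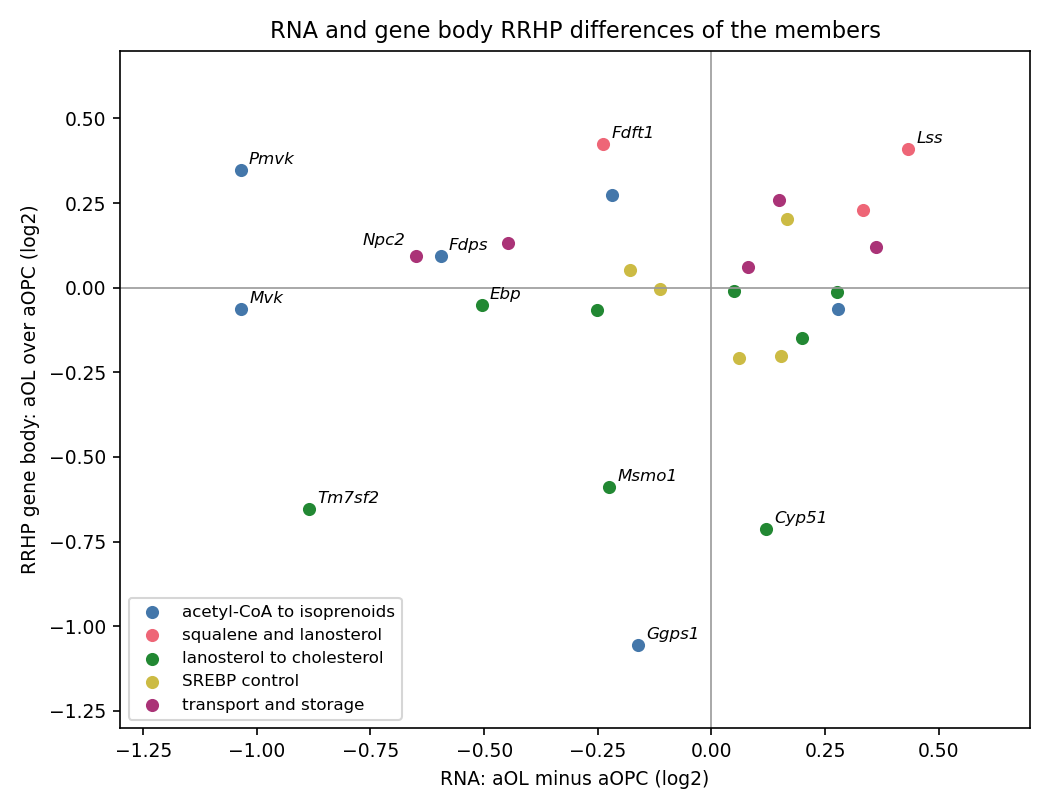
RNA difference (aOL minus aOPC, log2, horizontal axis) against the gene body RRHP log2 ratio (aOL over aOPC, vertical axis) of the 27 cholesterol genes with both values, coloured by role. The points scatter in all quadrants, with Mvk and Pmvk farthest left at body ratios of -0.06 and 0.35, and Fdft1 and Lss highest, on opposite sides of the vertical line.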

How the data were processed

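RNA and RRHP libraries of aOPC and aOL (2 per population and assay) were analysed. The RNA tables hold log2 values normalized by the authors, with nearly equal quantiles and no per-gene counts; reads had been aligned to mm10 with BWA, counted over exons and normalized with DESeq2 (version 1.2.5 per the submitters' processing notes). The RRHP tables hold raw counts per CpG site and strand as deposited by the authors, aligned to mm10; the aligner and the treatment of duplicates are not given in the sources used here.

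RNA values were compared with limma 3.58.1, with population as the only term, for genes that reached a log2 value of 5 in 2 or more libraries, and called at p under 0.01 and a Benjamini-Hochberg adjusted p under 0.05. RRHP counts were summed over gene bodies and promoters as the files annotate them and tested with edgeR 4.0.16 (quasi-likelihood, TMM) after its expression filter, and single sites that reached 10 reads in 2 or more libraries, all called at an adjusted p under 0.05. p-values were adjusted over all features tested. RRHP depth was 7113237 and 17121440 counts (aOPC) and 15923775 and 27057859 counts (aOL). Where both libraries of a population had 0 reads, folds used a floor of 3 counts per library, and floors cover counting error only. Nothing in the labels says that replicates came from separate animals, so p-values measure the spread between these samples. CCGG sites and sequences came from GRCm38.p6 and RefSeq, and gene intervals and exons from its annotation. Scripts were tested on simulated data.

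Genes named in RNA were members without overlap and with an unadjusted p under 0.05, and in each role the most abundant member and those with the largest difference in each direction. Those named in RRHP had a gene body or promoter p under 0.05, were among the 3 with most body reads, or held a site that was called or had a p under 0.01 and 50 or more reads in each library of a population. Of the other pathway genes, the 3 with the smallest p in each direction were named, apart from a result that is not reported here. The members and lists were chosen with earlier results of these data known. Alternatives covered scaling, filters, weights, DESeq2 1.42.0, a replicate block and leaving out each library.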

Additional observations from a re-analysis of the deposited data

How the results depend on the processing

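Each population had 2 libraries, which limits precision, and in RRHP aOPC replicate 2 was shallowest. Leaving out 1 library leaves an arm with 1 sample, which is assumed to vary like the other arm. Over such fits, RNA calls among the members ranged from 0 to 1 higher and 0 to 7 lower in aOL (all genes 0.0724% to 18.4% and 0.824% to 17.9%), and those at p under 0.05 from 1 to 10 higher and 0 to 14 lower (all genes 2.17% to 30.2% and 3.23% to 30.6%); a mean-variance trend gave 5 lower at that threshold (13.1% of all genes). The RNA difference changed sign in at least 1 of these fits for 14 of the 30 members. Among the 15 named members these were Idi1 (-0.031 to 0.64), Fdft1 (-0.51 to 0.036), Msmo1 (-0.51 to 0.063), Hsd17b7 (-0.17 to 0.72), Insig1 (-0.53 to 0.17) and Npc1 (-1.003 to 0.11); Abcg1, Cyp51, Insig2, Nsdhl, Acat2, Dhcr7, Ggps1 and Srebf2 also turned. Without a change of sign, the difference moved by over 1.5 times for these of the 15 named members: Lss (0.025 to 0.84), Hmgcs1 (0.11 to 0.45), Scap (0.045 to 0.29) and Npc2 (-0.89 to -0.40). Members outside the named ones, such as Sqle and Ebp, also moved that far. The cause of these turns was not tested.

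Gene body calls ranged from 0 to 5 higher and 0 to 1 lower over the fits that left out a library, and at p under 0.05 from 0 to 8 higher and 0 to 3 lower (all bodies called 0.069% to 10.2% and 0.379% to 12.3%, at p under 0.05 0.807% to 16.7% and 1.94% to 18.3%). The body ratio of Srebf2 turned to 0.0033 with DESeq2 size factors, 0.010 without TMM, 0.0052 without a filter, 0.0036 in the DESeq2 test, and ranged from -0.063 to 0.076 when a library was left out. That of Abca1 ranged from -0.024 to 0.15 when a library was left out, and that of Abcg1 turned to -0.019 over sites with 3 reads in every library, which drops sites unread in either population. Promoters at p under 0.05 numbered 1 higher with DESeq2 size factors (4.48% of all promoters), 1 without a filter (4.87%), and 0 to 2 in each direction over the fits that left out a library (all promoters 1.89% to 18.4% higher and 0.65% to 6.35% lower). The promoter ratio turned for Fdft1 (-0.62 without TMM, -0.20 to 0.32 when a library was left out), Srebf2 (-1.55 to 0.066 when a library was left out) and Abcg1 (-0.14 without TMM, -0.047 to 0.75 when a library was left out).

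Site calls were 1 higher and 0 lower with 10 reads in every library (all sites 0.134% and 0.153%), where none of the 8 called sites could enter, 0 lower with 20 reads in 2 libraries (0.756%), 5 lower of 831 with 1 read in 2 libraries (0.876%) and 0 lower in DESeq2 (0.962%). Leaving out a library gave 0 to 14 higher and 0 to 9 lower, where 0.0729% to 2.73% and 0.211% to 4.02% of all sites were called. At p under 0.05 these settings gave 5 higher and 3 lower (10 reads in every library, all sites 3.26% and 3.73%), 11 higher (20 reads, 5.31%), 49 higher and 17 lower of 831 (1 read, 5.11% and 3.27%), 13 higher and 3 lower (DESeq2, 2.56% and 2.22%), and 3 to 44 higher and 2 to 33 lower (leaving out a library, all sites 1.13% to 11.9% and 2.06% to 12.3%). Without 1 library, the log2 ratio of the called Abcg1 site at 31095763 was -8.70 (without aOL replicate 2) or -2.85 (without aOL replicate 3), that of the Srebf1 site at 60212190 ranged from -1.35 to -0.53, and that of the Abca1 promoter from -0.40 to -0.086.

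The replicate numbers do not pair the samples by any label. With the number as a replicate block, site calls were 10 higher and 2 lower (all sites 1.69% and 1.25%), the Fdft1 site among them (adjusted p = 0.0494 in edgeR), and gene bodies at p under 0.05 were 2 higher (2.11% of all bodies); deviations of same-numbered libraries correlated at -0.0736 in RNA and -0.414 in gene bodies.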
